A study of Mus musculus with 10 samples.

Results

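The nuclear-encoded genes of the mitochondrial respiratory chain were examined in RNA from mouse microglia, the resident macrophages of the brain. Members were chosen by symbol alone. They were the genes named Ndufa, Ndufb, Ndufc, Ndufs or Ndufv with a number, Sdha to Sdhd, those starting Uqcr, those starting Cox4 to Cox8, and those starting Atp5. This gave 84 of the 24453 genes listed, with 37 in complex I, 4 in complex II, 8 in complex III, 18 in complex IV and 17 in complex V. Some names carried by this rule are not structural subunits. Cox7a2l encodes a factor that joins complexes III and IV into supercomplexes, and Atp5sl, now named Dmac2, encodes a factor that acts in complex I assembly.

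The respiratory chain sits in the inner mitochondrial membrane. Complexes I and II pass electrons from NADH and succinate to ubiquinone, complex III passes them on to cytochrome c, and complex IV passes them to oxygen. The proton gradient made on the way drives complex V, the ATP synthase. Most subunits are encoded in the nucleus and imported, while a small core is encoded by mitochondrial DNA. Microglia use both this route and glycolysis to make ATP, and activated macrophages are known to shift between the routes.

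The study sequenced 10 libraries of C57bl6 mouse brain microglia that had been purified with magnetic beads. Ageing was represented by 3 aged libraries (mice of 15 months) and 3 young libraries (mice of 10 weeks). The other 4 libraries, from mice of 3 months, carried the names Rab7 deltaMG (n = 2) and Rab7 Control (n = 2). The series design calls the deltaMG mice Rab7 null mutants, and the labels name no Cre line, promoter or allele. The product of Rab7 is a GTPase that directs traffic from late endosomes to lysosomes. No mouse was treated. Nothing in the labels states whether each replicate was a different animal, so p-values measure only the spread between these libraries, which may be partly technical.

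Levels are given in RPM, reads scaled to a common library size. Each library’s own total corresponded to 6098289 to 9907469 reads per library, of which 1284412 to 1855049 lay in listed genes, and 1 read was worth 0.101 to 0.164 RPM. Rab7 was not lower in labelled deltaMG (72.2 and 79.4 RPM) than in labelled control libraries (64.2 and 67.5 RPM; limma adjusted p = 0.668). It therefore did not check the labels, and both groups are called by their labels throughout. The young libraries had Xist at 1715 to 1771 RPM and Y-linked genes summing to at most 0.288 RPM. The aged libraries had Xist at 0.127 to 0.940 RPM and a Y-linked sum of 35.7 to 48.7 RPM, so age and sex cannot be told apart. Both kinds of signal were present in the other 4 libraries. All 9 microglia markers were detected, with sums of 4947 to 5468 RPM in young, 3248 to 3655 RPM in aged, 4434 to 4904 RPM in labelled control and 4125 to 5331 RPM in labelled deltaMG libraries. The sum of 11 neutrophil markers was between 559 and 1425 RPM for the young group. For aged replicates 1 to 3 it was 1670, 965 and 4301 RPM, so aged replicate 3 stood apart. They summed to 460 and 694 RPM in labelled control and to 1186 and 1822 RPM in labelled deltaMG libraries.

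Most respiratory chain genes were read at low depth. The median over the 84 members of the mean level was 1.53 RPM. A mean of at least 10 RPM was reached by 6 members, 52 lay between 1 and 10 RPM, and 26 were under 1 RPM. All members together took 0.149% to 0.189% of the listed signal, and the 4 highest in RPM (Atp5b, Sdha, Atp5a1 and Cox7a2l) took 41.7% to 49.1% of the members' own sum. The summed level of all 84 was 313, 314 and 344 RPM in young and 353, 319 and 422 RPM in aged libraries. It was 434 and 368 RPM in labelled control and 323 and 351 RPM in labelled deltaMG libraries.

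Long transcripts held most of the reads. RPM is not divided by length, and the members' transcripts had a median length of 714 bases against 2373 bases for 20518 protein-coding genes in the table. Of the 52 members above 0 with a transcript under 1000 bases, none had a mean of 10 RPM, and their median was 1.26 RPM. Of the 27 longer ones, 6 did, and their median was 4.01 RPM. Across the 79 members with a length and a level above 0, mean level and length had a Spearman rho of 0.50, against 0.27 across 16320 protein-coding genes; genes share the same libraries and are not independent, and the rho is a description.

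**Figure D1:**
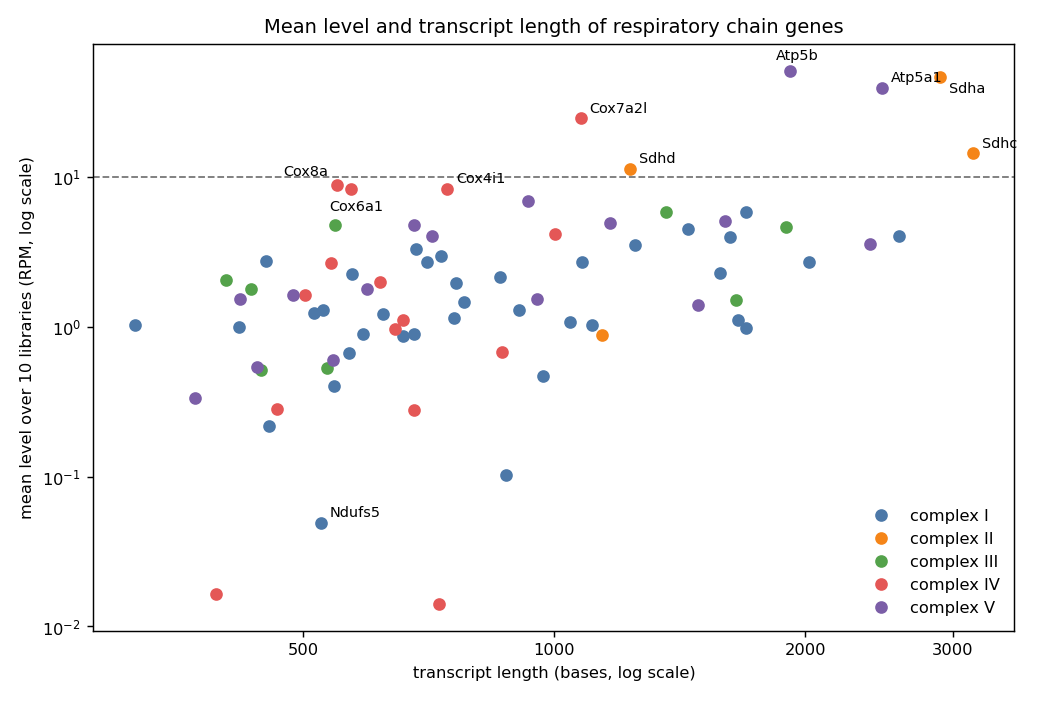
Mean level over the 10 libraries (RPM, log scale) against transcript length (bases, log scale), 1 point per member with a level above 0, coloured by complex. The dashed line is at 10 RPM; the 6 members above it all have transcripts of at least 1076 bases, and the members under 1000 bases lie below it.

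Per kilobase of transcript the order changed, and short subunits of complex IV came near the top. Atp5b, the catalytic beta subunit of ATP synthase, was highest at 26.6 RPM per kb (range over the 10 libraries 20.6 to 35.0). Cox7a2l followed at 22.8 (14.6 to 35.4), Sdha, the flavoprotein of succinate dehydrogenase, at 16.1 (13.1 to 20.1), and Cox8a, a small subunit of cytochrome c oxidase, at 15.9 (8.37 to 32.1). Atp5a1, the alpha subunit of ATP synthase, was also at 15.9 (12.2 to 21.1), Cox6a1 at 14.5 (11.3 to 22.5) and Cox4i1 at 11.2 (6.60 to 17.6). The ranges of neighbours in this order overlapped over libraries. Members farther apart could be separated: the range of Atp5b lay wholly above those of Sdha and Cox4i1.

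Subunits of 1 complex, which assemble in fixed ratios, were listed at very unequal levels per length. Among the 36 members of complex I above 0 they ran from 0.0937 RPM per kb for Ndufs5 to 6.11 for Ndufa4. Ndufa4 is counted in complex I by its symbol, while its product is found in complex IV. The next highest was Ndufc2 at 4.81. The Ndufs5 value was a fraction of 1 read in every library, and the gene matches 1 pseudogene. In complex II, Sdhb, the iron-sulfur protein, was at 0.773 RPM per kb and Sdha at 16.1. In complex III, Uqcrc1, a core protein, was at 0.916 and Uqcrh, the hinge protein, at 8.64. In complex V, Atp5k, a small membrane subunit, was at 0.904 and Atp5b at 26.6. Atp5o could not be matched to the annotation and has no length here.

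Part of these members share sequence with other genes. Of 83 members compared, 33 had a stretch of at least 100 bases with at least 95% identity to a transcript of another gene, and 50 had none. The median level was 1.55 RPM per kb for members with such a match and 2.39 for those without. Atp5l, a subunit of the ATP synthase membrane part, matched 11 other genes, 9 of them pseudogenes. Cox7a2l matched 1 pseudogene, and Sdha, Sdhc, Sdhd, Atp5b, Cox8a and Cox6a1 matched none. How the authors' counting treated shared reads is not given in the sources used here, so the levels of matched members are uncertain. For 20 members an exon lies over one of a gene on the opposite strand, such as Haus1 for Atp5a1 and Gabpa for Atp5j, and no strand setting is given.

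The promoters of these genes are known for motifs of NRF1, of ETS factors such as GABPA, and of YY1. RefSeq promoter windows (GRCm38.p6, 250 bases before to 50 after a start) were found for 67 members, and 22 of them held at least 1 of 3 motifs searched on both strands. The NRF1 core GCATGCGC was in 10 of 67 members (14.9%) and in 824 of 27025 genes with a window (3.05%). The ETS core CCGGAAGT was in 5 members (7.46%, against 4.31% of all genes). The YY1 core AAGATGGCG was in 8 members (11.9%, against 1.64%). Overlap between matches of the 3 motifs was not checked, and the NRF1 core can overlap its own reverse complement. Uqcr11 held both the NRF1 and the ETS core. A match is a description of these letters and not a bound site. An example of each motif is shown, in capitals, taken from stretches that lie in no GENCODE exon. Ndufa6 (complex I, an accessory subunit) is at chr15:82354351-82354390, minus strand, with the NRF1 core. Uqcr11 (complex III, its smallest subunit) is at chr10:80406864-80406903, minus strand, with the ETS core. Atp5j (complex V, coupling factor 6) is at chr16:84835040-84835079, minus strand, with the YY1 core. Unlike the stretches of Ndufa6 and Uqcr11, that of Atp5j lies inside the GENCODE span of its gene (chr16:84827866-84835625), before a RefSeq start within that span. All are written 5′ to 3′ on the gene's strand.
Ndufa6: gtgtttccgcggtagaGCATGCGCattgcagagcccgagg
Uqcr11: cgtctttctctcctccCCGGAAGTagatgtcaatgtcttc
Atp5j: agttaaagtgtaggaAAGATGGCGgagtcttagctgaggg

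Several subunits exist as isoforms made from separate genes, and microglial libraries mostly held the form known from most tissues. Cox4i1 made up 98.0% to 100% of the summed level per length of Cox4i1 and Cox4i2, the second being the form known from lung. Cox6a1 made up 89.3% to 100% beside the heart and muscle form Cox6a2. Cox6b1 made up 68.1% to 100% beside the testis form Cox6b2. The muscle forms Cox7a1 and Cox8b, the testis forms Cox7b2 and Cox8c, and Ndufa4l2, which is known as a hypoxia-induced relative of Ndufa4, were at 0 in at least 9 of 10 libraries. For Cox7b2, Cox8b, Cox8c and Ndufa4l2 this was all 10. A count of 0 allows up to 0.303 to 0.492 RPM per library (3 reads, counting error only), so expression below that was not detectable.

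In the Cox7a group, Cox7a2l made up 83.2% to 97.9% of the summed level per length and Cox7a2, the liver-type structural subunit, 1.17% to 16.8%. Cox7a2l is known in C57BL/6 strains for an allele that makes a shortened protein. The 3 genes for the identical mature c-ring subunit of ATP synthase were all detected. Atp5g3 made up 44.1% to 75.9% of their sum, Atp5g1 6.50% to 45.9% and Atp5g2 3.87% to 17.6%. The Atp5g1 share depends on its transcript: its mean was 2.99 RPM per kb with the 596-base form used here and 0.378 with a 4715-base form.

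The first comparison asked how aged and young microglia differ. None of the 7 members tested was called between aged and young libraries. A gene was tested if it reached 10 RPM in at least 2 libraries, which 8.33% of the members and 17.0% of all genes did. The 7 were Sdha, Sdhc, Sdhd, Cox4i1, Cox7a2l, Atp5a1 and Atp5b, so complexes I and III had no tested member. Of 4151 genes tested by limma, 6.14% were called at an adjusted p under 0.05. At an unadjusted p under 0.05 there was 1 member, Cox7a2l, and 894 genes (21.5%). The 7 log2 fold changes, on the scale of log2(RPM + 1), ran from 0.03 for Sdha to 0.38 for Cox7a2l with a median of 0.20, against -0.05 for all tested genes, of which 42.8% were above 0. Without aged replicate 3 that median was 0.08.

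The tested members divided between those with clear overlap and those with little. Sdha was at 41.1, 43.9 and 38.7 RPM in young and 41.0, 47.9 and 38.1 RPM in aged libraries. Sdhc, a membrane anchor of complex II, was at 15.1, 12.3 and 13 RPM in young and 12.7, 12.2 and 17.7 RPM in aged libraries. For both genes the groups overlapped. Sdhd, the other membrane anchor, was at 8.83, 9.35 and 9.79 RPM in young libraries. It was at 10.0, 9.79 and 13 RPM in aged libraries (log2 fold change 0.20, SE 0.22, limma adjusted p = 0.663). The lowest aged value lay only just above the highest young one.

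In complex IV, Cox7a2l (chr17:83501918-83517330, minus strand, GRCm38) was at 17.8, 22.1 and 15.7 RPM in young and 22.9, 22.8 and 27.0 RPM in aged libraries. These rest on 109 to 256 reads per library over the series. All 3 aged libraries were above all 3 young ones, with means of 18.5 ± 3.29 and 24.2 ± 2.43 RPM (SD, n = 3 each). The log2 fold change was 0.38 (SE 0.16, limma adjusted p = 0.169), which did not pass. Cox4i1, an early-joining nuclear subunit of complex IV, was at 6.78, 4.92 and 7.48 RPM in young and 7.05, 7.97 and 9.27 RPM in aged libraries. Its groups overlapped (log2 fold change 0.31, SE 0.25, limma adjusted p = 0.536).

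In complex V, Atp5b (chr10:128083273-128090391, plus strand, GRCm38) was at 48.9, 45.6 and 50.1 RPM in young and 51.9, 49.0 and 67.0 RPM in aged libraries. Only aged replicates 1 and 3 exceeded every young library (log2 fold change 0.20, SE 0.15, limma adjusted p = 0.479). Atp5a1 was at 35.9, 30.2 and 42.7 RPM in young and 31.2, 34.8 and 50.4 RPM in aged libraries, with overlap. In this comparison 2 of the 7 (Cox7a2l and Sdhd) had aged libraries all above young ones, and none all below; among all tested genes the shares were 8.41% above and 15.5% below.

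**Figure D2:**
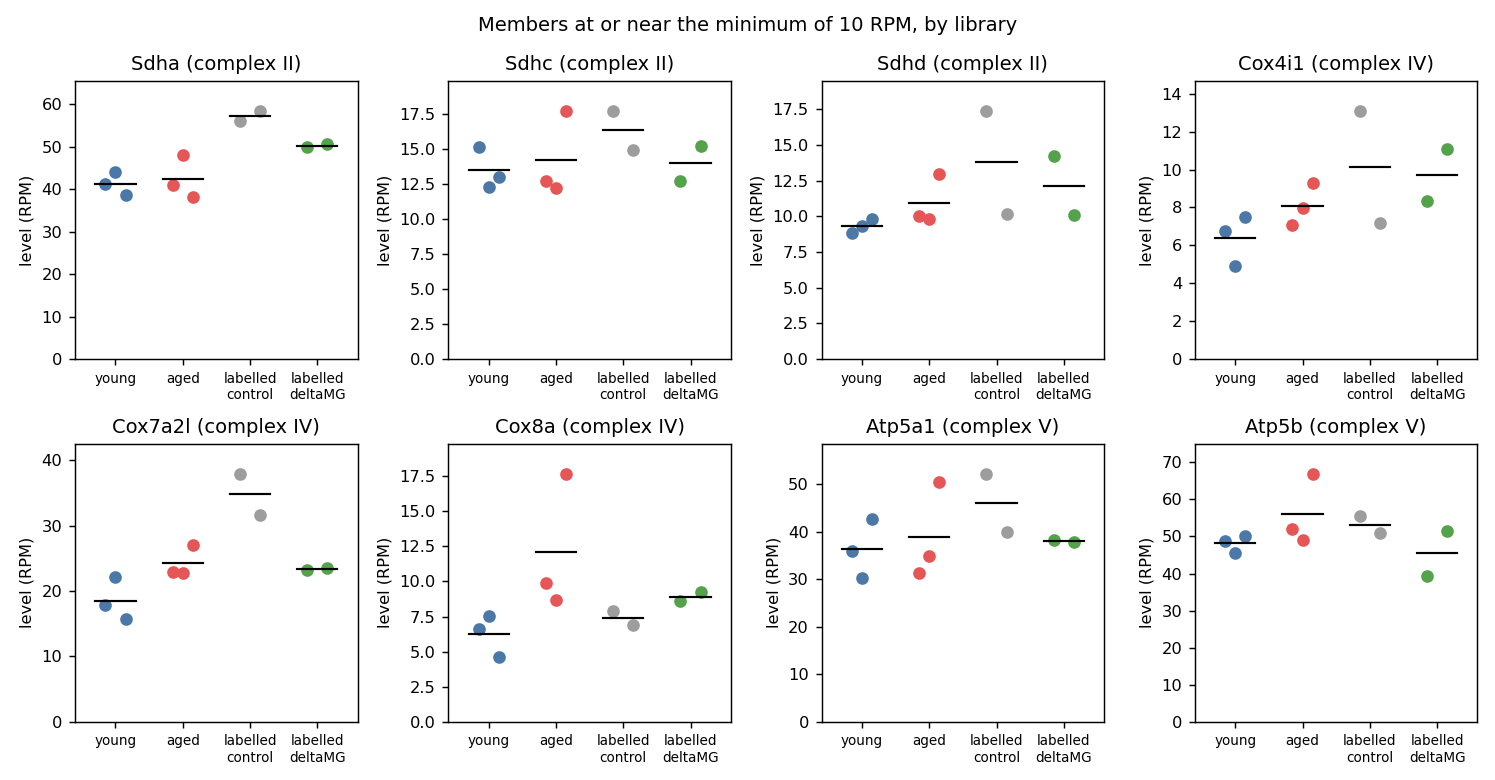
Level in RPM (vertical axis, from 0) of the 7 tested members and of Cox8a, which missed the minimum, in each of the 10 libraries. Each point is 1 library, placed by group, and the line is the group mean; Cox7a2l shows aged above young and labelled deltaMG below labelled control, and aged replicate 3 is the highest aged point in 7 of the 8 panels.

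A minimum of 1 RPM let 66 members (78.6%, against 44.2% of all genes) into the fit. Of these none was called between aged and young, where 3.44% of the 10800 tested genes were. The members that passed had 45 log2 fold changes above 0 and 21 below, with a median of 0.09 against -0.02 for all tested genes, of which 47.4% were above 0. By complex the medians were 0.09 for 31 members of complex I, 0.04 for 4 of complex II, 0.08 for 6 of complex III, 0.31 for 11 of complex IV and 0.07 for 14 of complex V. At an unadjusted p under 0.05 there were 6 members (9.09%), against 16.7% of all genes. They were Cox8a, Cox7b, Cox5a, Cox7a2l, Uqcrh and Atp5sl, of which 3 (Cox7b, Cox5a and Atp5sl) are named because of their values here.

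The largest differences among low members were in complex IV. Cox8a (chr19:7215153-7217616, minus strand, GRCm38) was at 6.62, 7.54 and 4.61 RPM in young and 9.87, 8.68 and 17.7 RPM in aged libraries, with no overlap. Its log2 fold change was 0.81 (SE 0.24, limma adjusted p = 0.0677). Cox8a and Cox6a1 each reached 10 RPM in 1 library, aged replicate 3, and so lay just outside the minimum, while Cox4i1 lay just inside with 2 libraries. Cox7b, an X-linked small subunit, was at 2.21, 3.77 and 3.02 RPM in young and 7.52, 3.84 and 7.87 RPM in aged libraries (log2 fold change 0.86, SE 0.28, limma adjusted p = 0.107). Its ranges were apart by less than 1 read. Cox5a, a subunit facing the matrix, was at 0.158, 0.328 and 0.720 RPM in young and 1.10, 0.908 and 2.54 RPM in aged libraries. It rested on 1 to 20 reads per library over the series. At this minimum Cox8a and Cox7b were both called without aged replicate 2, and Cox8a with median-of-ratios rescaling, 2 settings chosen after the data were seen. The share of all genes called in these settings is not given here. At the minimum of 10 RPM the same changes raised the number of all genes called from 255 to 419 and 328, so these calls do not set the members apart.

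Other complexes had members on both sides. Uqcrh was at 2.21, 2.30 and 4.46 RPM in young and 4.54, 4.14 and 7.62 RPM in aged libraries, with overlap (log2 fold change 0.70, SE 0.27, limma adjusted p = 0.167). Atp5sl was at 3.47, 6.23 and 5.18 RPM in young and 2.51, 2.52 and 3.30 RPM in aged libraries, with every aged library lower (log2 fold change -0.64, SE 0.26, limma adjusted p = 0.211). Ndufs4, an accessory subunit of complex I and its highest member in RPM, was at 4.73, 4.10 and 6.62 RPM in young and 6.42, 4.95 and 7.62 RPM in aged libraries, with overlap. Over the 66 members the aged libraries were all above the young in 6 (9.09%) and all below in 5 (7.58%). The shares of all 10800 genes were 8.60% and 10.9%, so neither count stood out from the background.

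Summed by complex, complex IV had the largest aged to young ratio. Its 18 genes summed to 50.4, 50.8 and 51.1 RPM in young and 67.2, 56.2 and 87.4 RPM in aged libraries. Every aged library was above every young one, the ratio of means was 1.38, and it was 1.22 without aged replicate 3. Without Cox7a2l the ratio was 1.43, but the groups overlapped, with aged replicate 2 at 33.4 RPM and young replicate 3 at 35.4 RPM. Sums have no test here, since their members share libraries.

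The other 4 sums overlapped between aged and young. Complex I summed to 59.4, 60.5 and 71.0 RPM in young and 71.8, 56.7 and 72.0 RPM in aged libraries, a ratio of 1.05. Complex II, of which Sdha was 63.7%, had 66.8, 66.2 and 62.5 RPM in young and 64.4, 71.0 and 69.7 RPM in aged libraries, also 1.05. Neither sum separated the groups. Complex III had 16.9, 17.5 and 24.5 RPM in young and 23.0, 18.6 and 26.6 RPM in aged libraries, a ratio of 1.16. Complex V had 119, 119 and 135 RPM in young and 126, 117 and 167 RPM in aged libraries, a ratio of 1.09 that was 0.974 without aged replicate 3. The sum of all members had a ratio of 1.13, and of 1.04 without that library.

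**Figure D3:**
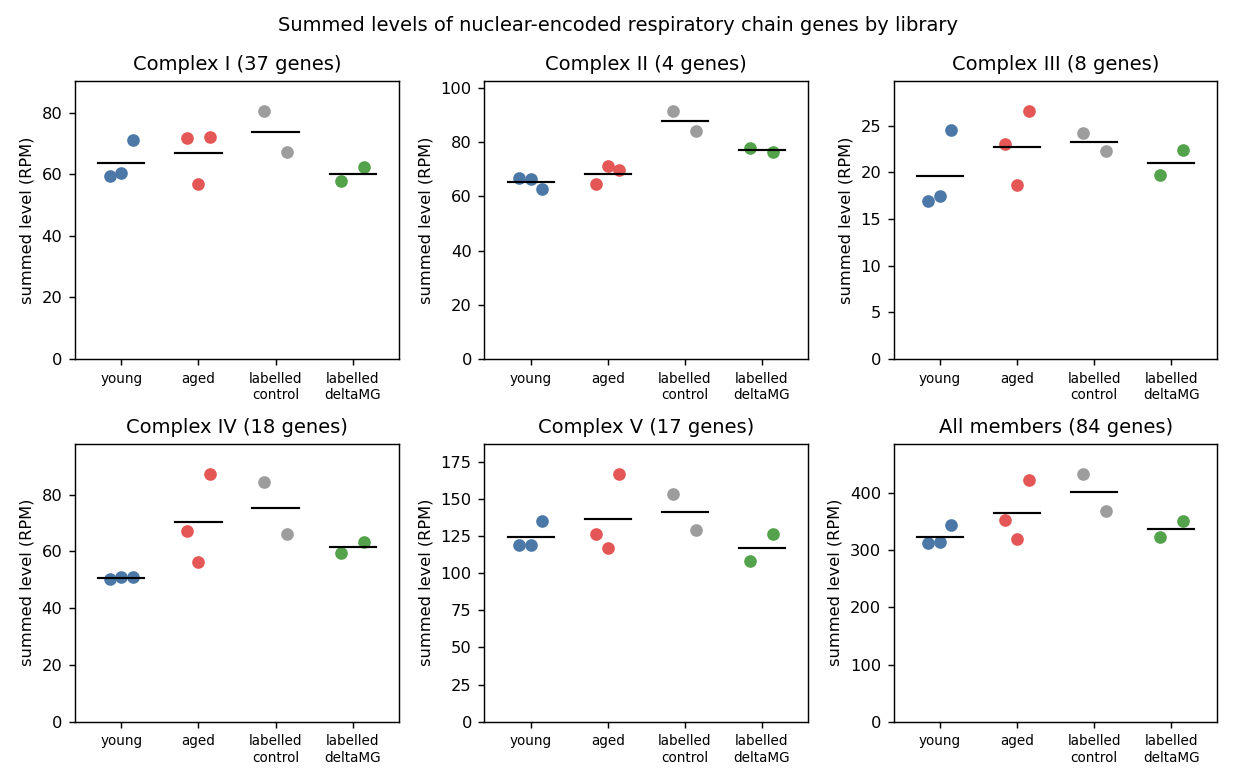
Summed level in RPM (vertical axis, from 0) of the members of each complex and of all 84 members in each of the 10 libraries. Each point is 1 library and the line is the group mean; the complex IV sums of the aged libraries (56.2 to 87.4 RPM) lie above those of the young (50.4 to 51.1 RPM), and labelled deltaMG lies below labelled control in every panel except that of complex III, where they overlap.

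Among the aged libraries, the sums of blood myeloid markers followed the order of the complex IV sums. That order was not particular to complex IV. The sums of complexes I, III and V and of all members had it too, while complex II did not. The RPM summed over all listed genes also had it, at 201750, 187237 and 223057 in aged replicates 1 to 3. Among the young libraries the complex IV sums were 50.4, 50.8 and 51.1 RPM, and 1 read was worth 0.144 to 0.164 RPM. They differed by only a few reads, so their order cannot be set against the markers. Young replicate 3 had the lowest neutrophil (559 RPM) and monocyte (46.1 RPM) sums of the young libraries. Aged replicate 3, with the highest complex IV sum, had the highest neutrophil sum, 4301 RPM, and the highest sum of 6 monocyte markers, 365 RPM. Monocyte sums were 46.1 to 75.6 RPM in young and 126 to 365 RPM in aged libraries, with 4 of the 6 called higher in aged, and 1 of 11 neutrophil markers was. None of these 17 markers was under 1 RPM in all libraries. Of the 9 microglia markers, 4 were called lower in aged libraries. Aged replicate 2, with the lowest aged complex IV sum, had the lowest aged neutrophil and monocyte sums. Other marker sums separated the groups as well. The sum of 5 border macrophage markers was 25.3 to 28.2 RPM in young libraries and 50.6, 30.1 and 82.4 RPM in aged replicates 1 to 3, the same order as the complex IV sums. Neuron markers summed to 0.984 to 1.30 RPM in young and 2.29 to 6.16 RPM in aged libraries, with 6 of 8 under 1 RPM everywhere, and erythroid markers to 0.655 to 3.34 RPM and 3.58 to 12.5 RPM. Astrocyte sums were lower in aged (25.5 to 34.4 RPM) than in young libraries (35.6 to 46.2 RPM), while oligodendrocyte and endothelial sums overlapped. The part of other cells in the complex IV difference was not tested; in bulk RNA, fewer cells of a type and less RNA per cell cannot be told apart.

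The second comparison set labelled deltaMG against labelled control libraries. None of the same 7 members was called, where 3.78% of the 4151 tested genes were. At an unadjusted p under 0.05 there was again 1 member, Cox7a2l, and 780 genes (18.8%). All 7 log2 fold changes were below 0, from -0.55 for Cox7a2l to -0.01 for Cox4i1. Their median was -0.21, against -0.02 for all tested genes, of which 48.0% were above 0. The members' median was -0.14 without control replicate 1 and -0.40 without control replicate 2.

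Cox7a2l was at 38.0 and 31.7 RPM in labelled control and 23.3 and 23.6 RPM in labelled deltaMG libraries, with means of 34.9 ± 4.46 and 23.4 ± 0.200 RPM (SD, n = 2 each). Both labelled deltaMG libraries were lower, and the labelled control libraries were the highest of the series. The log2 fold change was -0.55 (SE 0.19, limma adjusted p = 0.127), which did not pass. With only these 4 libraries in the fit it passed (limma adjusted p = 0.0332). That fit also called far more of all genes, 510 of 4151 against 157 in the main fit. Sdha (chr13:74322254-74350280, minus strand, GRCm38) was at 56.0 and 58.4 RPM in labelled control and 49.8 and 50.5 RPM in labelled deltaMG libraries. Its groups did not overlap (log2 fold change -0.19, SE 0.15, limma adjusted p = 0.575). All 4 of these libraries were above all 6 of the ageing comparison, at 38.1 to 47.9 RPM.

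In complex V, Atp5a1 was at 52.2 and 39.9 RPM in labelled control and 38.3 and 37.8 RPM in labelled deltaMG libraries (log2 fold change -0.26, SE 0.22, limma adjusted p = 0.599). The groups were apart, but by less than the distance between the labelled control libraries. Atp5b was at 55.4 and 50.9 RPM in labelled control and 39.4 and 51.5 RPM in labelled deltaMG libraries, with overlap (log2 fold change -0.23, SE 0.18, limma adjusted p = 0.543). Cox4i1, at 13.1 and 7.19 against 8.36 and 11.1 RPM, overlapped as well. The labelled deltaMG libraries were all below the labelled control in 3 of 7 members and all above in none. Among all tested genes these shares were 26.6% and 25.2%.

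At the minimum of 1 RPM none of the 66 members was called, where 1.69% of 10800 genes were. Log2 fold changes below 0 were found for 50 of the 66, and 24.2% were above 0, against 49.5% of all genes. The median was -0.14. By complex it was -0.14 in complex I, with 25 of 31 below 0, and -0.16 in complex II, with 3 of 4. It was 0.02 in complex III, -0.07 in complex IV and -0.24 in complex V, with 11 of 14 below 0. Labelled deltaMG libraries were all below labelled control in 23 of the 66 (34.8%, against 22.6% of all genes) and all above in 4 (6.06%, against 22.8%). The 4 were Cox8a, Ndufv1, Sdhb and Uqcrc1.

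Single low members of this comparison did not pass either. At an unadjusted p under 0.05 there were 2 members (3.03%, against 12.7% of all genes), Cox7a2l and Ndufa10. Ndufa10, an accessory subunit of complex I named here for its values, was at 3.57 and 4.23 RPM in labelled control and 2.27 and 1.88 RPM in labelled deltaMG libraries (log2 fold change -0.67, SE 0.32, limma adjusted p = 0.390). Ndufs4 was at 7.43 and 7.05 RPM in labelled control and 4.18 and 4.92 RPM in labelled deltaMG libraries (log2 fold change -0.57, SE 0.28, limma adjusted p = 0.411). Both complex I genes were lower in both labelled deltaMG libraries. Atp5f1, the b subunit of the ATP synthase stalk, was at 6.09 and 4.51 RPM in labelled control and 2.27 and 4.05 RPM in labelled deltaMG libraries (log2 fold change -0.62, SE 0.35, limma adjusted p = 0.484). Cox8a was at 7.88 and 6.91 RPM in labelled control and 8.60 and 9.26 RPM in labelled deltaMG libraries, with no overlap (log2 fold change 0.24, SE 0.30, limma adjusted p = 0.804).

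**Figure D4:**
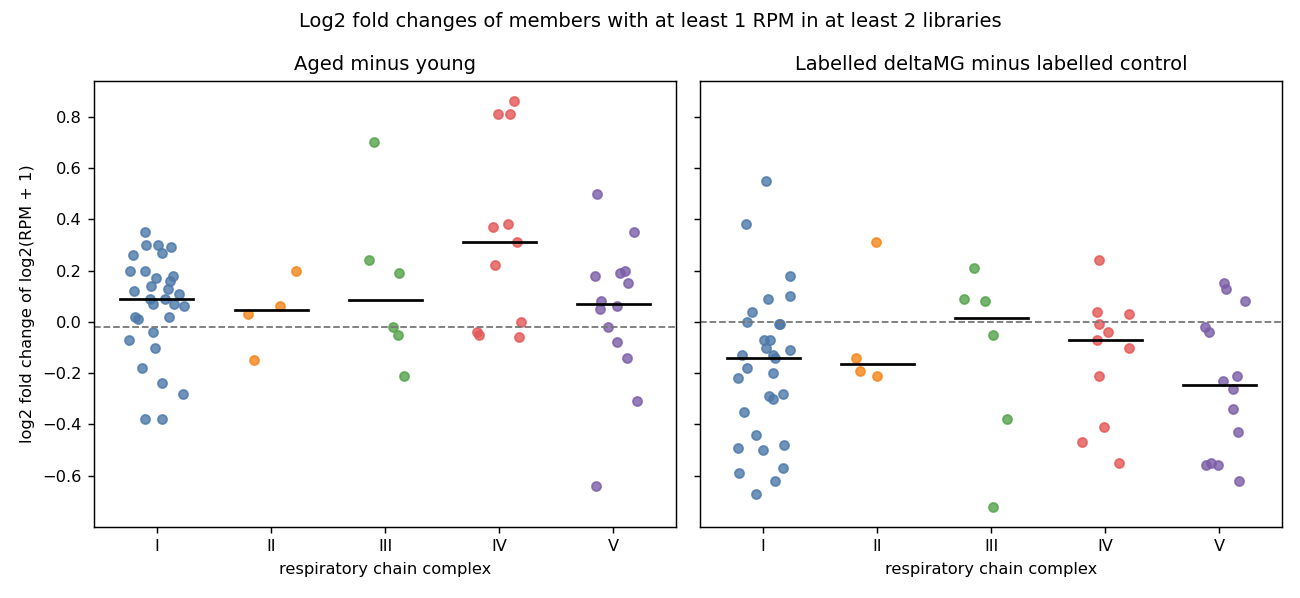
Log2 fold change on the scale of log2(RPM + 1) (vertical axis) of the 66 members with at least 1 RPM in at least 2 libraries, by complex, for aged minus young (left) and labelled deltaMG minus labelled control (right). Each point is 1 gene, the solid line is the median of the complex and the dashed line that of all 10800 tested genes; complex IV has the highest median on the left (0.31) and complex V the lowest on the right (-0.24), and no point passed the test.

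The sums were lower in the libraries labelled deltaMG for 4 of 5 complexes. Complex I summed to 80.6 and 67.1 RPM in labelled control and 57.7 and 62.4 RPM in labelled deltaMG libraries, a ratio of 0.813. Complex II summed to 91.5 and 84.0 against 77.9 and 76.4 RPM (0.879), and complex IV to 84.4 and 66.1 against 59.5 and 63.2 RPM (0.815). These groups did not overlap. Complex V summed to 153 and 129 against 108 and 126 RPM (0.832), also without overlap. In each of these 4 complexes the labelled control libraries lay farther apart than the gap between the groups. Complex III to 24.2 and 22.3 against 19.7 and 22.4 RPM (0.906), with overlap. Without Cox7a2l the complex IV ratio was 0.939 and the groups overlapped. The sum of all members had a ratio of 0.840, or 0.915 without control replicate 1. Without the 4 highest members it was 0.857, with overlap.

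The cell markers of these libraries differed as well. Neutrophil sums were higher in the libraries labelled deltaMG (1822 and 1186 RPM) than in those labelled control (694 and 460 RPM), with 1 of 11 markers called higher. Monocyte sums were 115 and 81.0 RPM against 46.6 and 35.3 RPM, with none of 6 called. Microglia marker sums overlapped, with 1 of 9 called higher. Erythroid sums were 9.24 and 1.74 RPM in labelled deltaMG against 0.0743 and 0.212 RPM in labelled control libraries, and endothelial sums 4.78 and 6.22 RPM against 3.12 and 1.55 RPM. Astrocyte sums were lower in labelled deltaMG (32.5 and 39.2 RPM) than in labelled control libraries (53.9 and 48.2 RPM), and border macrophage, neuron and oligodendrocyte sums overlapped. Their part in the lower sums was not tested. Monocyte and complex IV sums were both higher in aged than in young libraries, while neutrophil sums overlapped there. Here monocyte sums were higher and complex IV sums lower. The 2 comparisons also differed in other marker sums and in sex signals, so the part of myeloid cells cannot be read from this contrast.

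Cox7a2l was the 1 member of the 7 tested for which the 2 comparisons differed by test. The difference between its log2 fold changes, 0.38 in ageing and -0.55 between the labelled groups, was 0.93 (SE 0.25, limma adjusted p = 0.0437). Of the 4151 genes, 4.79% were called in this test. The call was lost at a minimum of 1 RPM (limma adjusted p = 0.0735), where 1.90% of 10800 genes and none of the 66 members were called and 5 members had an unadjusted p under 0.05. It was also lost on leaving out young replicate 1 or 3, aged replicate 1 or 3, or any of the 4 labelled libraries (limma adjusted p = 0.0565 to 0.236), so it rests on most libraries at once. The difference itself stayed between 0.80 and 1.06 under every alternative run.

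Genes that work with the chain were examined as lists. Of the 23 genes tested on all lists, limma called 0 in ageing and 1 (4.35%) between the labelled groups. All tested genes were called at 6.14% and 3.78%, so with so few genes these counts do not set the lists apart. Of 48 assembly factors 2 were tested and none was called, with 1 at an unadjusted p under 0.05 in each comparison. Coa5, a complex IV assembly factor, was at 23.3, 25.7 and 21.7 RPM in young and 26.8, 27.1 and 35.9 RPM in aged libraries (log2 fold change 0.32, limma adjusted p = 0.220). It was at 38.2 and 37.1 RPM in labelled control and 26.4 and 29.7 RPM in labelled deltaMG libraries (log2 fold change -0.41, limma adjusted p = 0.225). As with Cox7a2l, its aged libraries were all above the young ones and its labelled control libraries were the highest. The other tested factor, Cox15 of heme A synthesis, overlapped in both comparisons.

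Of 15 regulators of mitochondrial biogenesis 4 were tested, with no call by limma in either comparison, no member at an unadjusted p under 0.05, and medians of 0.03 in ageing and -0.15 between the labelled groups. Gabpa, the DNA-binding subunit of an ETS factor, was at 37.7, 48.7 and 42.5 RPM in young and 42.8, 36.0 and 54.3 RPM in aged libraries. Yy1, a zinc finger factor, was at 11.6 and 11.4 RPM in labelled control and 8.24 and 7.81 RPM in labelled deltaMG libraries (log2 fold change -0.47, limma adjusted p = 0.303). Of the 14 citrate cycle enzymes 5 were tested, with no call, 1 member (Cs, in ageing) at an unadjusted p under 0.05, and medians of 0.03 and -0.30. Cs, citrate synthase, was at 16.4, 13.9 and 19.7 RPM in young and 19.7, 22.9 and 28.7 RPM in aged libraries (log2 fold change 0.48, limma adjusted p = 0.118). Of 77 mitochondrial ribosomal proteins 3 were tested, with no call, none at an unadjusted p under 0.05, and medians of 0.07 and 0.17. At the minimum of 1 RPM these lists again had no call, but some medians changed sign. In ageing and between the labelled groups they were -0.04 and -0.12 for 14 regulators and -0.07 and -0.16 for 14 citrate cycle enzymes. For 67 ribosomal proteins they were 0.06 and -0.12. Medians of so few genes at 10 RPM therefore do not give the direction of a list. None of 8 further chain genes with other symbols, such as Cycs for cytochrome c, was tested at the minimum of 10 RPM. Of the 13 mitochondrially encoded subunits, 0 were found by symbol among the listed genes, so they could not be analysed.

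The called gene was on the glycolysis list. Of its 17 genes 9 were tested, with a median of 0.38 in ageing, no call and 3 at an unadjusted p under 0.05. Pkm, the last enzyme of glycolysis, was at 18.6, 21.5 and 13.1 RPM in young and 24.6, 19.5 and 52.6 RPM in aged libraries (log2 fold change 0.73, limma adjusted p = 0.133). Aged replicate 3, with the highest neutrophil sum, was also highest for Ldha, lactate dehydrogenase A, at 62.5 RPM against 14.0 to 42.5 RPM in the others. Between the labelled groups the median was -0.22, and Hif1a, a transcription factor that induces glycolytic genes, fell 3.59-fold. It was at 82.0 and 70.1 RPM in labelled control and 17.6 and 23.7 RPM in labelled deltaMG libraries (log2 fold change -1.84, SE 0.20, limma adjusted p = 0.000144). The 6 libraries of the ageing comparison had Hif1a at 22.9 to 32.3 RPM, so the labelled control libraries were the high ones. Aldoa, an aldolase of glycolysis, was at 22.3 and 17.9 RPM in labelled control and 13.1 and 11 RPM in labelled deltaMG libraries (log2 fold change -0.69, limma adjusted p = 0.210).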

How the data were processed

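Total RNA of bead-purified mouse brain microglia was amplified and sequenced as Ion Xpress fragment libraries, per the labels' protocols. The table deposited by the authors holds normalised values read here as RPM: most low values in a library (94.2% to 94.6%) were whole multiples of 1 step, within 0.05 of a read, above a constant of 0.0001 that was subtracted. Whole reads could not be recovered for every value, so no count model was used. Genome builds GRCm38 and mm10 and FastQC are named in the submitters' processing notes; which aligner, counter, annotation and strand setting were used is not given in the sources used here.

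Values were transformed to log2(RPM + 1). The pseudocount understates fold changes of low genes. Genes reaching 10 RPM in 2 or more libraries were fitted with limma 3.58.1 (R 4.3.3) as 4 groups, leaving 6 residual degrees of freedom, with a prior variance that follows the mean level. Benjamini-Hochberg adjustment ran over all tested genes, and an adjusted p under 0.05 was a call. Lengths are those of the shortest principal transcript in GENCODE M21 (82 members matched by symbol, 1 by a synonym). Copies were searched with blastn 2.17.0, and figures drawn with matplotlib 3.10.9 in Python 3.11.15.

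The members, lists and markers were chosen with earlier results of these data known. Named genes were called members, the 4 tested members with the smallest p per comparison, the 4 highest members per complex, isoform families, members next to the minimum, and up to 3 genes per list with the smallest p. A gene that met this rule is not reported here. The lowest member per length in a complex, the motif examples and members singled out at 1 RPM were chosen after their values were seen. The labels tie no replicate numbers to a shared animal or day, and same-numbered aged and young libraries did not deviate together (r = -0.14, -0.24 and -0.39), so the numbers were not used as pairs. Alternatives changed the minimum, pseudocount, scaling, libraries in the fit, replicate block, prior and weights, or left out each library; the minimum of 1 RPM combined with rescaling or with leaving out a library was added after the data were seen.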

Additional observations from a re-analysis of the deposited data

How the results depend on the processing

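Of 482 alternative values, 427 were classed as unchanged. For single genes this meant the same direction and side of the threshold. For counts, medians and sums the class was wide. It held 175 to 372 genes called in ageing against 255, and a members' median in ageing of 0.08 against 0.20. Among the results followed, the Cox7a2l difference was the only called direction, and no alternative reversed it. Ratios near 1 could cross it. Aged over young, complex V went from 1.09 to 0.974 without aged replicate 3, and complex I from 1.05 to 0.993 with quantile normalization. Counts of called members changed little. For aged minus young the count was 0, and 2 or 1 at a minimum of 1 RPM without aged replicate 2 or with median-of-ratios rescaling. Both settings were chosen after the data were seen, and the share of all genes called in them is not given here. For the labelled groups it was 0, and 1 (Cox7a2l) with only those 4 libraries in the fit, where 510 genes were called against 157. For the difference it was 1, and 0 at a minimum of 1 or 0.1 RPM, with no mean-dependent prior, and with the replicate block; it was 0 to 1 on leaving out a library.

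Counts over all genes moved more. With the replicate block they were 66 (ageing), 69 (labelled groups) and 102 (difference), against 255, 157 and 199; for the labelled groups, with 2 libraries each, the same-numbered correlation is a single value, 0.12, and does not settle whether the numbers pair them. With only the compared libraries they were 121 and 510. Array weights gave 357 for the labelled groups and 344 for the difference. Leaving out 1 library gave 92 to 419, 22 to 307 and 61 to 261. On leaving out 1 library, the members' median between the labelled groups ran from -0.40 to -0.14, and the complex IV ratio of these groups from 0.727 to 0.928. That ratio was 0.939 without Cox7a2l. The cause of these moves was not tested.

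Depth limits these results: 77 members missed the minimum of 10 RPM and 18 missed that of 1 RPM, so the levels of the latter rest on few reads.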
